A study of Saccharomyces cerevisiae with 6 samples.

Results

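Budding yeast (Saccharomyces cerevisiae) cells that lack CDC73 were compared with wild-type (WT) cells for the occupancy of their ribosomal DNA (rDNA) by RNA polymerase I (Pol I). The comparison used 4 of the 6 samples of the study, 2 WT libraries and 2 cdc73 deletion libraries, chosen by genotype alone, and all 6858 positions listed for this pair. All strains were grown at 30 °C, and the labels name no drug, tag or second mutation. The assay was native elongating transcript sequencing (NET-seq), in which Pol I is immunoprecipitated from cells lysed frozen and the 3' ends of the RNA that come with it are sequenced. The labels do not say whether the 2 libraries of a genotype came from separate cultures or clones, so p-values measure the spread between these libraries, which may be technical. The files cover only the rDNA, so the loss of CDC73 itself could not be checked in them.

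Cdc73 is a subunit of the Paf1 complex, which travels with elongating RNA polymerase II and also acts on transcription by Pol I. Its human counterpart, parafibromin, is a tumour suppressor. Pol I makes a single long precursor that is cut into the 18S rRNA of the small ribosomal subunit and the 5.8S and 25S rRNAs of the large one, while the external (ETS) and internal (ITS) transcribed spacers between and around them are discarded. A polymerase that dwells at a base leaves more 3' ends there, so NET-seq signal is read as occupancy. RNA that ends at a mature rRNA end also has a 3' end, and the values do not separate it from nascent RNA.

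Positions are counted from the start of the transcribed rDNA, which lies on the minus strand of chromosome XII in build R64 and runs from 467569 down to 460712. The signal is the number of reads at a position scaled so that positions 1 to 6739 sum to 1000000. It is relative: total Pol I occupancy was not measured, and a lower share at one place raises the others. The WT libraries held 480708 and 226202 reads, and the deletion libraries 18428847.5 and 14965806.5. The shallower deletion library was 31.1 times as deep as the deeper WT library, so depth, and any batch that went with it, cannot be told apart from genotype. The cdc73 deletion libraries resembled each other across positions with a Spearman rho of 0.991, the WT libraries with 0.954, and WT and deletion libraries with an average of 0.644, given as a description over 6858 positions that share a library. Shifting one profile along the other did not bring them closer: rho between the group means was 0.653 in register and 0.523 and 0.519 when moved by 1 nt either way.

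The sequences around the largest rise and the largest fall in each region are shown first, because the base at the RNA 3' end recurs in the results. Each line holds 25 nt of the RNA, from the base column of the deposited table, 5' to 3', with the base at the RNA 3' end in capitals.
5' ETS fall, position 536, chrXII:467022-467046, minus strand: uuuugaacagagAgcauuuccggca
5' ETS rise, position 631, chrXII:466927-466951, minus strand: aagagggaauagGugggaaaaaaaa
18S fall, position 2019, chrXII:465539-465563, minus strand: ugcuuaauugcgAuaacgaacgaga
18S rise, position 1754, chrXII:465804-465828, minus strand: gaucggguggugUuuuuuuaaugac
ITS1 fall, position 2617, chrXII:464941-464965, minus strand: cuuaagugcgcgGucuugcuaggcu
ITS1 rise, position 2769, chrXII:464789-464813, minus strand: ucgagcaaucggGgcccagagguaa
5.8S fall, position 2999, chrXII:464559-464583, minus strand: auuccagggggcAugccuguuugag
5.8S rise, position 3015, chrXII:464543-464567, minus strand: cuguuugagcguCauuuccuucuca
ITS2 fall, position 3116, chrXII:464442-464466, minus strand: uccaaagagaggUuucucugcgugc
ITS2 rise, position 3049, chrXII:464509-464533, minus strand: uuugguagugagUgauacucuuugg
25S fall, position 4673, chrXII:462885-462909, minus strand: ucgggucgaacgGccucuagugcag
25S rise, position 4968, chrXII:462590-462614, minus strand: ucaccccggaauUgguuuauccgga
3' ETS fall, position 6680, chrXII:460878-460902, minus strand: gguacuggcaggAgccggggccuag
3' ETS rise, position 6673, chrXII:460885-460909, minus strand: cuaaguggguacUggcaggagccgg

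The first question was where along the rDNA Pol I occupancy differed. Occupancy in the deletion was lower in the 5' ETS, ITS1 and 3' ETS and higher in 5.8S, ITS2 and 25S. The 5' ETS, which leads the transcript and on which the U3 snoRNP assembles, held 10.2% and 8.65% of occupancy in the WT libraries and 3.46% and 3.65% in the deletion libraries. Its share was thus 2.65-fold lower in the deletion, 3.55% ± 0.137 against 9.41% ± 1.08 (SD, n = 2 each). The 5.8S share was 1.76% and 1.83% in WT and 3.02% and 2.97% in the deletion, 1.67-fold higher. For 25S the shares were 55.8% and 56.8% in WT and 62.8% and 63.6% in the deletion. The groups did not overlap in any of the 7 regions, and an exact permutation test (two-sided) returned p = 0.333 for each, the smallest that 2 against 2 libraries allow.

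The smaller spacers differed in both directions. ITS1, which is cut to part the small and large subunit RNAs, held 1.28% and 1.35% of occupancy in WT and 0.842% and 0.827% in the deletion. ITS2, the spacer between 5.8S and 25S, held 0.919% and 0.992% in WT and 1.05% and 1.14% in the deletion. The 18S share was 29.5% and 29.8% in WT and 28.4% and 27.3% in the deletion. In all 3 regions the gap between genotypes was smaller than that of the 5' ETS, in percentage points.

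Walking along the transcript, 25% of all occupancy had been passed at positions 1624 and 1742 in WT and at 2006 and 2053 in the deletion. The point at which 50% had been passed moved from 3691 and 3763, in 25S, to 4141 and 4187. The 75% point lay at 5192 and 5204 in WT and at 5410 and 5398 in the deletion. All 3 points thus lay farther downstream in both deletion libraries than in either WT library.

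Windows of 100 nt showed where within the regions the shares differed. Limma, fitted over 69 windows, called 24 higher (34.8% of those tested) and 30 lower (43.5%) at an adjusted p under 0.05. All 7 windows of the 5' ETS, all 3 windows that lie wholly in ITS1 and both windows of the 3' ETS were called lower. The 18S windows were mixed, with 5 higher, 6 lower and 7 not called, and 25S had 16 higher, 12 lower and 5 not called. The window within 5.8S, the one from 5.8S into ITS2 and the one from ITS2 into 25S were called higher.

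In the 5' ETS, window 501 to 600 held 2.81% and 2.195% of occupancy in WT and 0.461% and 0.476% in the deletion. Its log2 fold change was -2.40 (SE 0.10), with an adjusted p of 1.26e-24 by limma, which borrows the spread of all windows. Window 101 to 200 held 3.03% and 2.44% in WT and 0.851% and 0.877% in the deletion (log2 fold change -1.65). Those were the highest windows of the 5' ETS in WT, and in the deletion all 7 lay below 1%. Windows 301 to 400 and 201 to 300 changed by -1.36 and -1.19 on the log2 scale.

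The last window, 6801 to 6858 at the end of the 3' ETS, had the largest fall of all windows. It held 0.0618% and 0.0641% in WT and 0.00670% and 0.00517% in the deletion (log2 fold change -3.42, SE 0.10, adjusted p = 5.28e-30 by limma). The last 119 positions together, which lie outside the sum used for scaling, held 0.107% and 0.114% of occupancy in WT and 0.0209% and 0.0192% in the deletion. Of 118 of these positions tested, 34 (28.8%) were called lower, close to the share of 29.4% over all positions, and 2 (1.69%) higher, against 30.0% over all positions. The rest of the 3' ETS, positions 6648 to 6739, held 0.512% and 0.530% in WT and 0.421% and 0.493% in the deletion. That was a 1.14-fold lower share, against 5.50-fold for the last 119 positions, and within the 3' ETS the centre of occupancy moved from 21.7% and 22.0% of its length to 13.1% and 11.9%.

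Of the 5 windows with the largest rise 4 lay in 25S. Window 5401 to 5500 held 1.11% and 1.22% in WT and 2.63% and 2.82% in the deletion (log2 fold change 1.22, SE 0.09, adjusted p = 1.23e-15 by limma). Windows 4801 to 4900, 6101 to 6200 and 4201 to 4300, all in 25S, changed by 1.04, 0.98 and 0.95, and window 3001 to 3100, which spans the end of 5.8S, by 0.94. The neighbouring parts of 25S went either way: the window from 4601 to 4700 was called lower while the one from 4801 to 4900 was called higher.

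**Figure D1:**
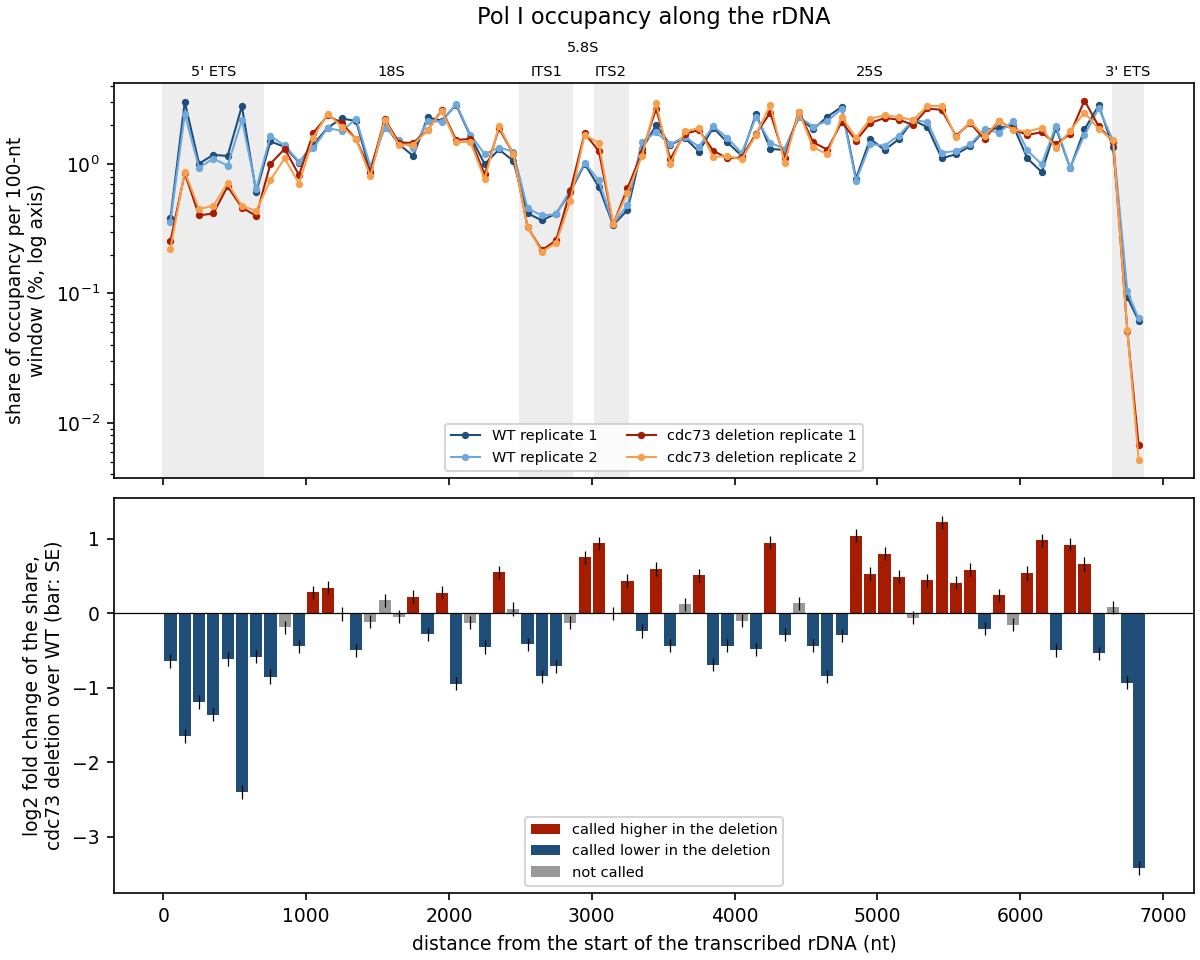
Upper panel, share of Pol I occupancy (%, log axis) in 69 windows of up to 100 nt against the distance from the start of the transcribed rDNA (nt) for each of the 4 libraries, with the spacers shaded. Lower panel, log2 fold change of the share, cdc73 deletion over WT, with its SE; all 7 windows of the 5' ETS are lower, and the last window reaches -3.42.

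At single positions, rises and falls were equally common. Limma was run on log2(signal + 44.3) at 6839 positions with a signal above 0 in at least 2 of the 4 libraries, and 19 positions were not tested. Of the positions tested, 2054 were called higher (30.0%) and 2011 lower (29.4%), and the median log2 fold change was -0.0049. At least 2-fold on the same scale were 723 rises (10.6%) and 776 falls (11.3%). The genotypes did not overlap at 5550 positions (81.2%), so the absence of overlap by itself sets no position apart.

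These calls were spread unevenly over the regions. In the 5' ETS 368 of 691 positions tested were called lower and 94 higher, with a median log2 fold change of -0.37. In 5.8S 71 of 156 were called higher and 23 lower, with a median of 0.28. ITS1 had 120 lower and 53 higher of 360, and ITS2 had 61 lower and 70 higher of 231. For 25S the counts were 1240 higher and 834 lower of 3395, and for 18S 511 and 546 of 1798. The 3' ETS had 59 lower (28.4%) and 15 higher (7.21%) of 208. Against the background of about 30% in either direction, the 5' ETS stood out by its falls and 5.8S by its rises, as their shares did.

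The largest falls were nearly complete. Position 536 in the 5' ETS, an adenine within a run of purines, had signals of 1895 and 2129 in WT and 7.001 and 6.35 in the deletion. Its log2 fold change was -5.33 (SE 0.11, adjusted p = 4.22e-05 by limma), on a scale that understates changes of low positions, and the plain ratio of the means was 301-fold. Position 163, a guanine in the same spacer, had 2212 and 2301 in WT and 23.2 and 23.4 in the deletion (log2 -5.09). Both were among the brightest positions of the 5' ETS in WT and close to dark in the deletion, in both libraries.

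Falls of this kind also occurred inside the rRNAs. Position 2019 of 18S, an adenine, had 3369 and 3134 in WT and 226 and 187 in the deletion (log2 fold change -3.72, SE 0.14, adjusted p = 1.03e-04 by limma). Position 784, another adenine of 18S, had 1383 and 1615 in WT and 106 and 72.8 in the deletion (log2 -3.54). In 25S positions 4673 and 4151, both guanines, changed by -3.64 and -3.36. The falls of 5.8S were shallower: position 2999 had 364 and 403 in WT and 82.1 and 64.8 in the deletion (log2 -1.86), and position 2878 changed by -1.66.

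In the internal and 3' spacers the largest falls left little signal. Position 2617 of ITS1 had 529 and 451 in WT and 8.85 and 6.48 in the deletion (log2 -3.36). Position 3116 of ITS2 had 379 and 434 in WT and 13.4 and 9.09 in the deletion (log2 -3.02). Position 6680 of the 3' ETS had 369 and 367 in WT and 6.19 and 5.88 in the deletion (log2 -3.04). The other named falls there, positions 2546, 3136 and 6666, changed by -2.42, -2.29 and -2.33.

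The largest rises began from modest signals in WT. Position 4968 of 25S, a uracil, had 150 and 212 in WT and 2185 and 2320 in the deletion (log2 fold change 3.36, SE 0.17, adjusted p = 1.20e-04 by limma). Position 4273, also a uracil of 25S, had 187 and 266 in WT and 2242 and 2737 in the deletion (log2 3.23). In 18S both named rises, positions 1754 and 1755, were neighbours at the start of a run of uracils. The first of them had 68.7 and 88.5 in WT and 914 and 947 in the deletion (log2 2.99), and the second changed by as much.

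In 5.8S the rise at position 3015, a cytosine 4 nt before the end of the rRNA, stood out. It had 446 and 403 in WT and 3221 and 3601 in the deletion (log2 fold change 2.88, SE 0.15, adjusted p = 1.22e-04 by limma). Position 2983, a uracil farther upstream, had 148 and 199 in WT and 1018 and 1188 in the deletion (log2 2.40). Both lie in the later part of 5.8S, and the centre of occupancy within 5.8S moved from 47.9% and 48.6% of its length in WT to 55.0% and 58.4% in the deletion.

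Even the 5' ETS held positions that rose. Position 631, a guanine, had 49.98 and 88.5 in WT and 531 and 530 in the deletion (log2 2.36), and position 109, a cytosine, changed by 2.27. ITS2 position 3049, a uracil, had 29.2 and 17.7 in WT and 247 and 235 in the deletion (log2 2.08). The log2 scale understates changes of low positions here too. Plain ratios of the means were 10.3-fold at position 3049 and 7.66-fold at 631, against 12.4-fold at 4968 of 25S and 11.8-fold at 1754 of 18S. The named rises of ITS1, positions 2769 and 2604, changed by 1.68 and 1.61 on the log2 scale, and those of the 3' ETS, 6673 and 6660, by 1.11 and 0.99. WT signals at these places rest on few reads: at position 3049 the WT libraries counted 14 and 4 reads.

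**Figure D2:**
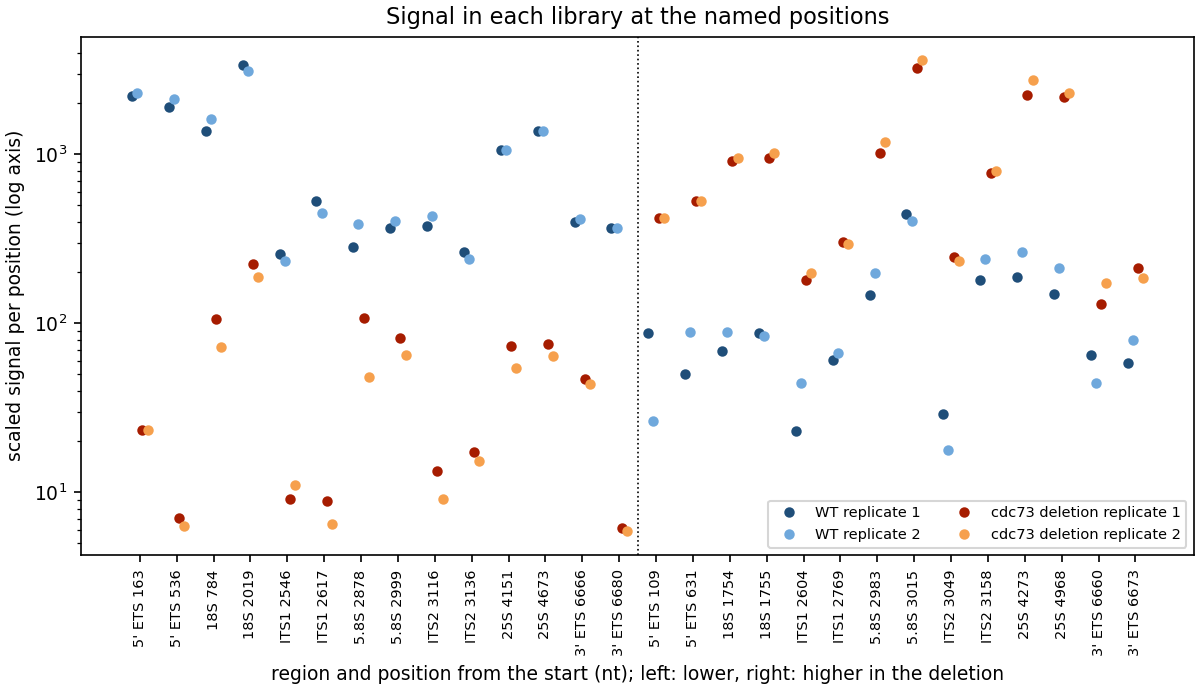
Scaled signal (log axis) in each of the 4 libraries at the 28 named positions, the 2 largest falls (left) and the 2 largest rises (right) of each region. At none do the genotypes overlap, which the choice of positions required.

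Among these 28 positions the base differed with the direction. Of the 14 falls 8 were at adenine, 4 at guanine, 2 at uracil and none at cytosine. Of the 14 rises 8 were at uracil, 3 at guanine, 2 at cytosine and 1 at adenine. The counts describe positions chosen for their change and carry no test, and the next comparison took all positions.

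The second question was whether occupancy depended on the base at the RNA 3' end in the same way in both genotypes. Relative to the other bases, adenine was lower and uracil higher in the deletion, and over all positions and in the pooled spacers these were the largest changes. In the spacers, the mean signal at adenines over the mean of all spacer positions was 1.34 and 1.32 in WT and 0.576 and 0.556 in the deletion, 0.427 times the WT level. For uracil it was 0.705 and 0.762 in WT and 1.20 and 1.22 in the deletion. Adenine thus went from the most to the least occupied base of the pooled spacers, and uracil from the least to the most occupied, in both libraries. Of the single spacers only the 5' ETS had this full exchange. In ITS1 guanine was the most occupied base in the deletion (1.43 and 1.49). In ITS2 guanine was the least occupied base in both genotypes, and in the 3' ETS uracil was already the most occupied in WT (1.20 and 1.31).

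Within the mature rRNAs the same bases moved the same way by less, and there guanine, at 0.871 times the WT level, was lowered more than adenine, at 0.916 times. Adenine had a relative occupancy of 1.12 and 1.14 in WT and 1.03 and 1.03 in the deletion. Uracil had 0.923 and 0.931 in WT and 1.07 and 1.07 in the deletion. Guanine did not keep a direction: it was lower in the deletion in the mature rRNAs (0.948 and 0.925 against 0.817 and 0.814) and higher in the pooled spacers (1.04 and 0.996 against 1.12 and 1.10). Among the spacers, guanine was higher in the 5' ETS and ITS1 and lower in ITS2 and the 3' ETS. Cytosine was higher in the deletion in both, at 1.17 and 1.19 against 0.963 and 0.934 in the spacers. Two-sided exact permutation tests again returned p = 0.333 for each base, the smallest possible here.

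Taken region by region, the relative occupancy of adenine was lower and that of uracil higher in the deletion in all 7 regions, without overlap between the genotypes. The 5' ETS had 1.40 and 1.39 for adenine in WT and 0.566 and 0.555 in the deletion. In the 3' ETS the values were 0.875 and 0.825 against 0.186 and 0.179, the widest ratio. In 25S they were 1.09 and 1.12 against 1.05 and 1.05, the narrowest. Each region was scaled to its own mean, so the lower share of the 5' ETS does not enter these values. Single adenines did not all go the way of these means. In 5.8S 23 of 41 adenines tested (56.1%) were called higher and 7 lower, against 45.5% higher for all 5.8S positions. In 25S 338 of 899 (37.6%) were called higher and 223 lower, against 36.5% higher for all 25S positions. In the remaining regions more adenines were called lower than higher.

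**Figure D3:**
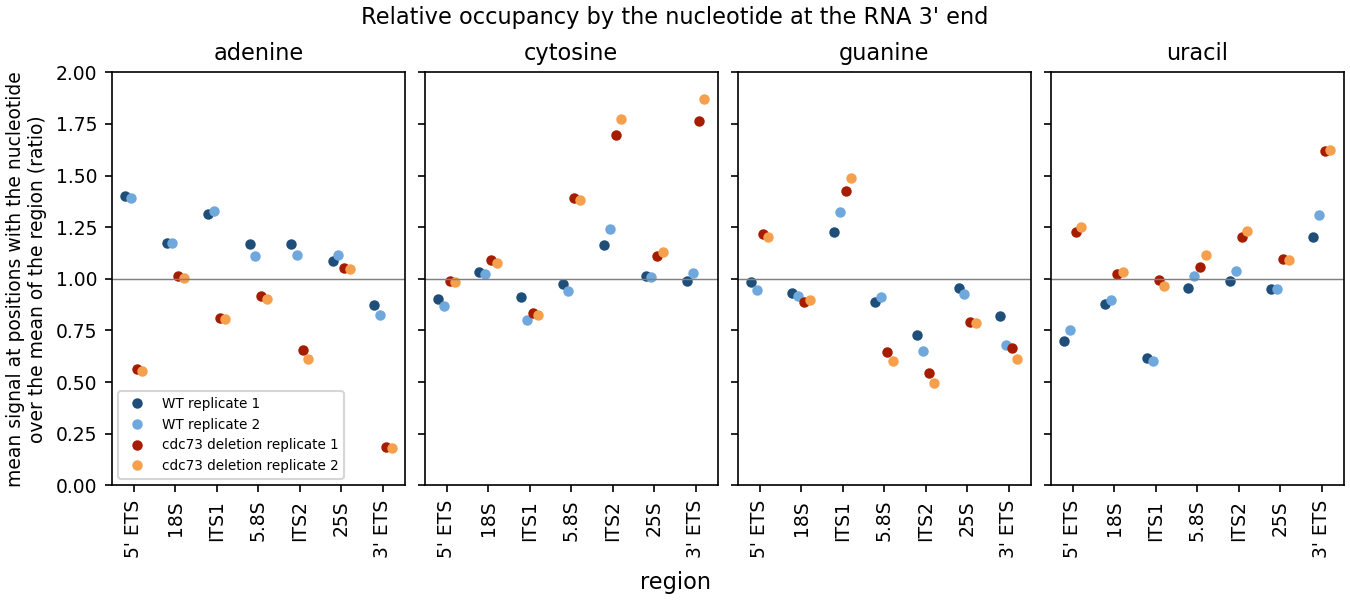
Mean signal at positions with a given nucleotide at the RNA 3' end over the mean of the region (ratio), in each of the 4 libraries and 7 regions, where 1 is the region's mean. Adenine is lower and uracil higher in the deletion in every region, while guanine differs in direction between regions and cytosine overlaps between the genotypes in ITS1.

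Counts of single positions separated the spacers from the rRNAs. Of 422 adenines tested in the spacers, 256 were called lower and 17 higher, against 29.4% lower and 30.0% higher over all positions. In the 5' ETS 141 of 193 adenines (73.1%) were called lower and 6 higher, where 53.3% of all its positions tested were lower and 13.6% higher. In the 3' ETS 33 of 64 adenines (51.6%) were called lower and none higher, where 28.4% of all its positions tested were lower and 7.21% higher. In the mature rRNAs, by contrast, 471 of 1422 adenines were called higher and 409 lower, and their mean signal overlapped between the genotypes (182 and 188 in WT, 182 and 181 in the deletion). Uracil was less one-sided: in the spacers 117 of 495 were called higher and 133 lower, and in the mature rRNAs 559 of 1419 were called higher and 295 lower. Over all spacer positions tested 40.8% were called lower and 15.6% higher, so spacer uracils, with 26.9% and 23.6%, had fewer falls and more rises than the spacers as a whole. Their mean signal, on the scale of the whole rDNA, was 60.9 and 58.95 in WT and 46.2 and 49.8 in the deletion, while that of all spacer positions was 86.5 and 77.4 in WT and 38.5 and 40.7 in the deletion. Over the pooled spacers, the higher relative occupancy of uracil is thus a smaller fall than that of the other bases, not a higher signal. Single spacers differed. In the 5' ETS 43 of 211 uracils tested were called higher and 88 lower. In ITS2 36 of 86 (41.9%) were called higher and 13 (15.1%) lower, against 30.3% and 26.4% of all its positions. ITS1 had 29 of 121 higher and 23 lower, and the 3' ETS 9 of 77 either way. With all libraries thinned to 226202 reads, 196 spacer adenines were called lower and 65 spacer uracils higher, and without deletion replicate 2 there were 74 such uracils.

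Adenines differed by the base before them. Spacer adenines that follow a base other than adenine had a relative occupancy of 1.83 and 1.78 in WT and 0.690 and 0.649 in the deletion, over 273 positions. Adenines that follow another adenine, 153 positions, had 0.454 and 0.494 in WT and 0.378 and 0.394 in the deletion. Of the first kind, where WT occupancy was high, 199 of 271 positions tested (73.4%) were called lower. Of the second 57 of 150 (38.0%) were, which is near the 40.8% of all spacer positions. In the mature rRNAs adenines after an adenine went the other way, from 0.611 and 0.605 in WT to 0.725 and 0.751 in the deletion, with 184 of 442 called higher and 73 lower.

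The base that follows the RNA 3' end is the next one to be added. In the spacers, positions that precede a guanine had a relative occupancy of 1.34 and 1.30 in WT and 1.72 and 1.70 in the deletion. Positions that precede a uracil had 1.03 and 1.03 in WT and 0.639 and 0.643 in the deletion. The 64 spacer positions that rose at least 2-fold were followed by guanine in 60.9% of cases and by uracil in 1.56%, where all spacer positions tested were followed by them in 23.1% and 33.2%. The 245 that fell at least 2-fold were followed by uracil in 44.1% and preceded by guanine in 38.0%, against 23.0% preceded by guanine among all.

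Combining the 3 bases, occupancy was compared over the 64 contexts formed by the base before, at and after the RNA 3' end. Limma called 30 contexts higher (46.9%) and 27 lower (42.2%) in the deletion. Of the 16 contexts with uracil at the 3' end 11 were called higher and 3 lower, and of the 16 with adenine 5 were higher and 10 lower. Cytosine had 10 higher and 6 lower, and guanine 4 higher and 8 lower. Contexts add up to a fixed total, so higher and lower calls are tied to each other.

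The largest fall was that of guanine between uracil and cytosine, with a relative occupancy of 0.885 and 0.941 in WT and 0.513 and 0.492 in the deletion, over 99 positions. Its log2 fold change was -0.86 (SE 0.04, adjusted p = 2.17e-09 by limma). Adenine between guanine and uracil had 1.93 and 1.98 in WT, among the highest of all contexts, and 1.24 and 1.17 in the deletion (log2 -0.70). Cytosine between guanine and uracil, adenine between guanines and guanine between guanine and uracil changed by -0.67, -0.66 and -0.65. In 4 of these 5 contexts the base before the 3' end was guanine.

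The largest rise was that of cytosine between uracil and adenine, from 0.858 and 0.888 in WT to 1.55 and 1.59 in the deletion (log2 0.85, SE 0.04, adjusted p = 1.52e-09 by limma). Uracil between adenine and guanine had 0.546 in both WT libraries and 0.813 and 0.861 in the deletion (log2 0.61). Cytosine between adenines, cytosine between uracils and uracil between cytosine and guanine changed by 0.58, 0.58 and 0.57. None of the 5 had a guanine before or at the 3' end.

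In the spacers alone some of these contexts differed far more. Over 22 spacer positions, adenine between guanine and uracil had 2.15 and 2.41 in WT and 0.383 and 0.352 in the deletion (log2 fold change -2.63, SE 0.12, adjusted p = 4.34e-31 by limma with a single spread for all contexts). Uracil between adenine and guanine, 20 positions, had 0.227 and 0.180 in WT and 1.03 and 1.10 in the deletion (log2 2.40). Contexts were not cleanly split by the base at the 3' end. Of those with adenine 8 were called lower and 1 higher, and of those with uracil 9 higher and 2 lower. Uracil between guanine and uracil had 1.41 and 1.45 in WT and 0.425 and 0.382 in the deletion (log2 -1.83), and adenine between adenines rose (log2 0.44). Other contexts were not called there: cytosine between adenines (log2 0.04, adjusted p = 0.743 by limma), cytosine between uracils (0.02, adjusted p = 0.891 by limma) and guanine between guanine and uracil (-0.14, adjusted p = 0.298 by limma). Only the 34 contexts with at least 20 spacer positions were fitted.

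**Figure D4:**
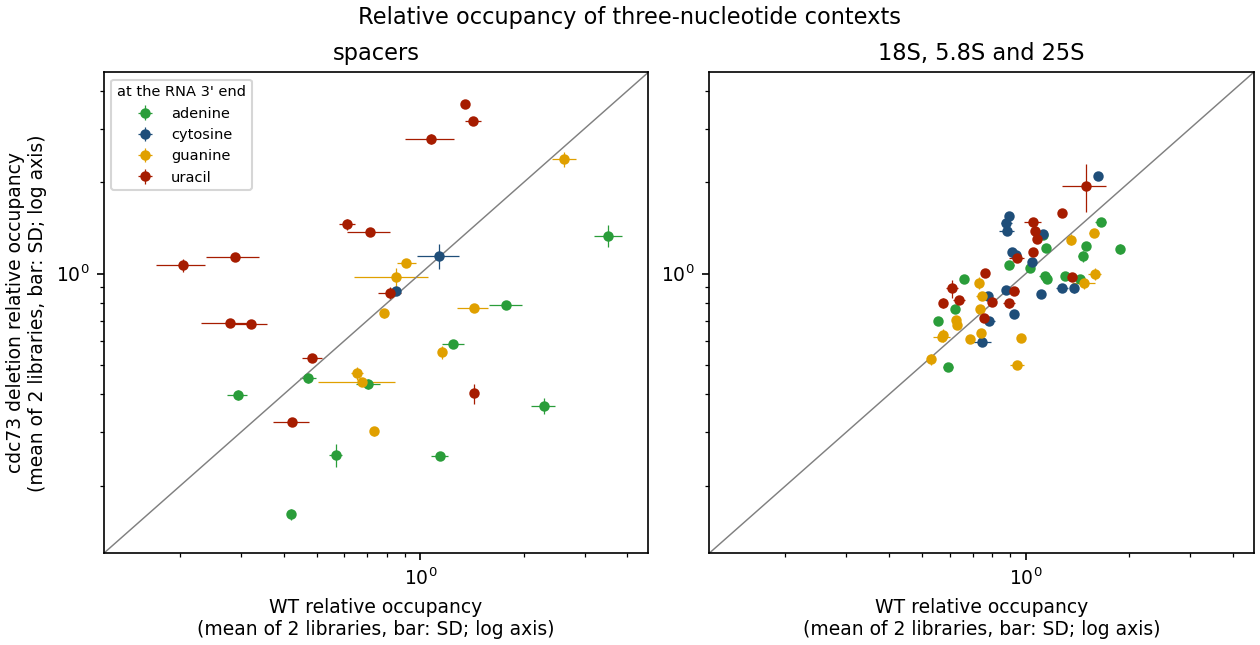
Relative occupancy of three-nucleotide contexts in the cdc73 deletion against WT (log axes, mean of 2 libraries with SD), coloured by the nucleotide at the RNA 3' end, for the spacers (34 contexts) and for the mature rRNAs. In the spacers 8 of 10 adenine contexts are called lower and 9 of 13 uracil contexts higher, while the mature contexts lie closer to the line of equality.

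A pair of stretches of 60 nt shows the changes at the level of sequence. They were chosen because they hold the most positions called lower, and the most called higher, by at least 2-fold, so their counts are a description with no test. Capitals mark the bases called lower (first line) or higher (second line) by at least 2-fold.
5' ETS, positions 496 to 555, chrXII:467015-467074, minus strand: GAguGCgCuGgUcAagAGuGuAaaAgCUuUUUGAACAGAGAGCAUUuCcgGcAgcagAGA
25S, positions 6130 to 6189, chrXII:461381-461440, minus strand: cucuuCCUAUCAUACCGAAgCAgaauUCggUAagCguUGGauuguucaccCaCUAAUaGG
In the first, 38 of 60 positions fell at least 2-fold, among them 14 of 18 adenines, 11 of 19 guanines and 13 of 23 pyrimidines. In the same stretch 3 positions were called higher, 2 of them at least 2-fold. The stretch held 2.66% and 1.84% of occupancy in WT and 0.396% and 0.374% in the deletion. In the second, 47 positions were called higher and none lower. The 32 that rose at least 2-fold were 9 of 16 adenines, 10 of 15 cytosines, 5 of 12 guanines and 8 of 17 uracils. Adenines thus rose there as well as uracils, in a stretch where every base rose. These are calls on signal, whereas the comparison of bases took signal relative to the mean of a set of positions. The second stretch held 0.342% and 0.382% of occupancy in WT and 1.22% and 1.33% in the deletion.

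**Figure D5:**
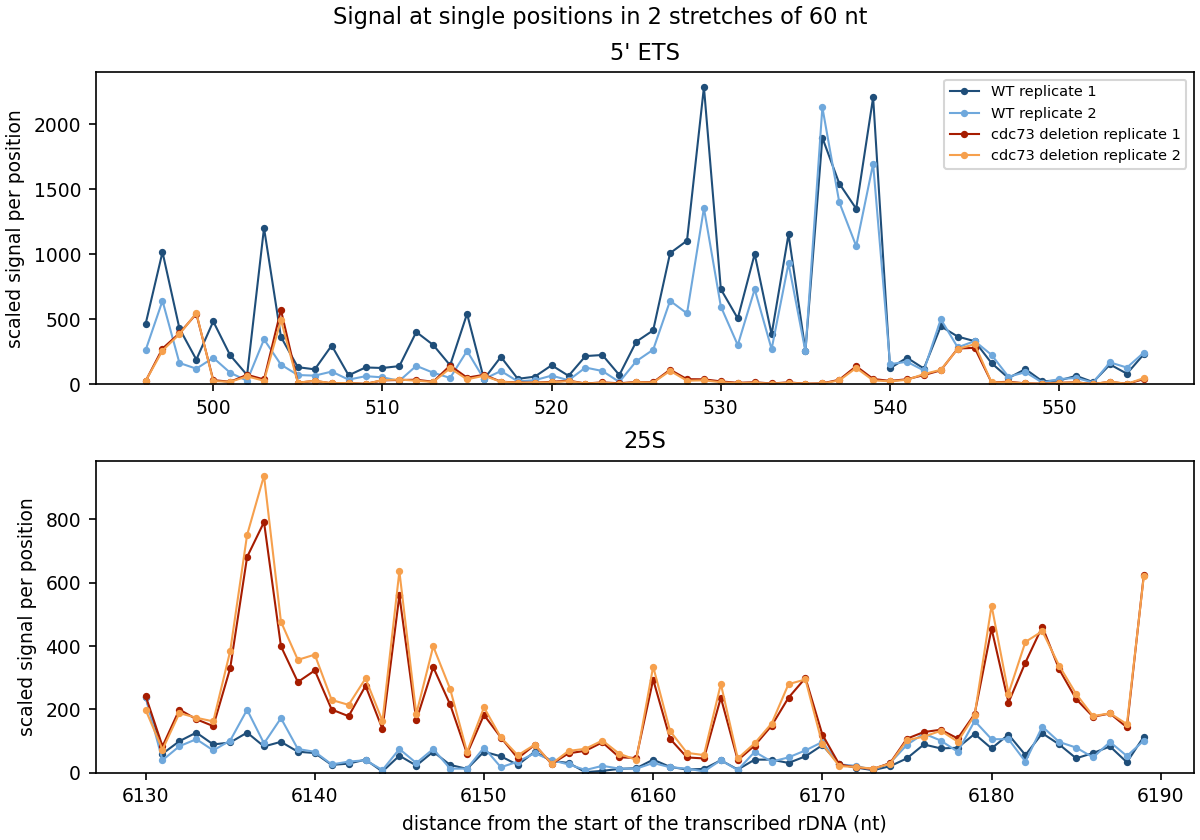
Scaled signal at each position of both stretches in the 4 libraries, against the distance from the start of the transcribed rDNA (nt). In the 5' ETS stretch both WT libraries exceed 1000 only at positions between 527 and 539, where the deletion libraries stay low. At positions 499 and 504 of that stretch both deletion libraries lie above both WT libraries. In the 25S stretch both deletion libraries lie above both WT libraries at most positions.

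Neighbouring positions often changed together. Runs of at least 5 neighbours all called in one direction numbered 94 for rises, holding 854 positions, and 82 for falls, holding 659. Of the runs of falls 39 lay in 25S, 20 in the 5' ETS and 19 in 18S. Of the runs of rises 65 lay in 25S and 20 in 18S. By length, 25S makes up 3396, 18S 1800 and the 5' ETS 700 of the 6858 positions. The longest run of rises, 28 nt from position 1130 in 18S, held 0.235% and 0.249% of occupancy in WT and 0.697% and 0.706% in the deletion. The longest run of falls, 20 nt, also lay in 18S. The 19-nt run of falls from position 525 to 543 in the 5' ETS held 1.70% and 1.33% in WT and 0.0757% and 0.0683% in the deletion.

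The third question was whether the strongest pauses were at the same places. Pause sites were positions whose signal exceeded, in both libraries of a genotype, the mean of the 50 neighbours on either side by more than 3 SD. There were 130 such sites in WT and 135 in the deletion, and 17 were shared, 13.1% of the WT sites and 12.6% of the deletion sites. Of the 113 sites found in WT only, 57 (50.4%) were at adenine, which makes up 27.0% of all positions. Of the 118 found in the deletion only, 26 (22.0%) were at adenine, 40 (33.9%) at uracil and 32 (27.1%) at cytosine, where uracil and cytosine make up 1920 and 1281 of all 6858 positions. In the spacers 14 of 20 sites of WT only were at adenine, against 3 of 32 of the deletion only, where 15 were at uracil and 11 at guanine; adenine, uracil and guanine make up 28.4%, 33.0% and 22.9% of the spacers.

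The brightest sites show how far the classes differ. Among sites of WT only, the brightest was position 2019 of 18S, described above. It was followed by position 4773 of 25S, a uracil with 3255 and 2974 in WT and 620 and 663 in the deletion, and by position 1378 of 18S, an adenine with 2378 and 2523 in WT and 199 and 154 in the deletion. Their log2 fold changes were -2.203 and -3.51.

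Among sites of the deletion only, position 6411 of 25S was the brightest but uneven, with 3394 and 602 in WT and 9889 and 4721 in the deletion. Its log2 fold change of 2.21 (SE 0.80) did not pass the test (adjusted p = 0.0575 by limma). Position 5315, a cytosine, had 648 and 1049 in WT and 3758 and 4457 in the deletion (log2 2.25). Position 5046, a uracil, had 423 and 434 in WT and 3666 and 4170 in the deletion (log2 3.07). The brightest shared sites, 5010, 6646 and 4930, all lay in 25S and were higher in the deletion as well, by 1.28, 1.23 and 2.01 on the log2 scale. Position 6646 lies next to the last position of 25S, 6647, where mature RNA could add 3' ends, which was not tested.

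At the ends of the rRNAs, where mature RNA could add 3' ends, the mean signal of the last 10 nt was higher in the deletion for all 3 rRNAs. For 5.8S it was 176 and 200 in WT and 652 and 750 in the deletion, and the first 10 nt of ITS2 had 203 and 258 against 340 and 435. The last 10 nt of 18S had 279 and 398 in WT and 523 and 639 in the deletion, and those of 25S 353 and 424 against 607 and 623. Of the last 10 positions, 4 were called higher and 2 lower in 18S and likewise in 25S, and 6 higher and 1 lower in 5.8S. Bright single positions weigh on these means. They include position 3015 in 5.8S, and 6646 in 25S, with 1227 and 1350 in WT and 2972 and 3181 in the deletion. The part of mature RNA in these values was not tested. Around the start of 18S signal was lower: the last 10 nt of the 5' ETS had 17.1 and 19.0 in WT and 2.69 and 2.53 in the deletion, and the first 10 nt of 18S had 104 and 114 against 35.0 and 42.4.

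The unevenness of the profile within a region was measured by the Gini coefficient, which is 0 for an even profile and nears 1 when few positions hold all signal. In 5.8S it was 0.504 and 0.5004 in WT and 0.577 and 0.604 in the deletion. In ITS2 it was 0.612 and 0.668 against 0.685 and 0.709, and in the 3' ETS 0.791 and 0.800 against 0.868 and 0.880. ITS1 was also more uneven in the deletion, and these 4 regions kept the direction without overlap after all libraries were thinned to one depth. The 5' ETS (0.695 and 0.678 against 0.682 and 0.679) and 25S overlapped between the genotypes. The 18S was less uneven in the deletion as deposited, at 0.494 and 0.490 against 0.469 and 0.489, and overlapped after thinning.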

How the data were processed

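The authors deposited, for each pair of genotypes, a table of signal per rDNA position, and the table of WT and the cdc73 deletion was used (the other 2 tables were not). As the values show, the deposited signal is reads scaled to a sum of 1000000 over positions 1 to 6739. Divided by a library's smallest value, 100% of WT values and 99.9% and 100.0% of deletion values came out whole to within 0.1 read, and 10 values of the deletion libraries were a whole number plus 0.5. Build R64 and the tools STAR 2.7.1a, cutadapt 3.4, bedtools 2.28.0 and SAMtools 1.6 are named, per the submitters' processing notes, beside R 4.3.2, FastQC 0.11.7 and bcl2fastq 2.20.00. Not given in the sources used here are the use of the linker's molecular identifiers, the read end that set a position, and the placing of reads among rDNA repeats. Regions are those of the deposited table, and the whole precursor, 18S, 5.8S and 25S have the ends of RDN37-2, RDN18-2, RDN58-2 and RDN25-2 in RefSeq.

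The test of positions above 0 in at least 2 of 4 libraries was limma's moderated test (version 3.58.1, eBayes with a trend, under R 4.3.3) on log2(signal + 44.3), where the pseudocount is 0.5 times the median value above 0, with Benjamini-Hochberg adjustment and a threshold of 0.05. Shares of windows and relative occupancies of contexts were tested on the log2 scale without trend. Single values per library were compared by exact permutation tests. Alternatives were other pseudocounts and filters, equal medians, a replicate block, thinning, capping at the 99th percentile, other window and pause settings, leaving out each library, and edgeR 4.0.16 and DESeq2 1.42.0 on the whole reads. The position test was tested on simulated data. Named are, per region, the 2 largest rises and 2 largest falls among called positions with a mean at or above the median and no overlap, the 5 windows and contexts with the largest change in each direction, and the 3 brightest pause sites of each class. The comparison, lists and tests were chosen with earlier results of these data known. Python 3.11.15 ran the remaining steps, with scipy 1.17.1, pandas 2.3.3, numpy 2.4.6 and matplotlib 3.10.9.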

Additional observations from a re-analysis of the deposited data

How the results depend on the processing

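Of the summary results under their alternatives, 253 kept direction and size, 12 moved and 1 reversed. The reversal was guanine, whose relative occupancy, deletion minus WT, was -0.107 over all positions and 0.0946 in the pooled spacers, which themselves differed in direction. With libraries thinned to 226202 reads, positions called higher numbered 1335 in place of 2054, spacer uracils called higher 65 in place of 117 and 5.8S positions called higher 41 in place of 71, a setting with fewer reads by construction. Leaving out 1 library gave 1545 to 2546 positions higher and 1417 to 2576 lower, and 74 to 174 spacer uracils higher, the lowest without deletion replicate 2; a lone library is then assumed to vary like the other group. In the spacers only, 10 contexts were called higher in place of 30, with fewer contexts fitted. Pause sites shared, in WT only and in the deletion only numbered 49, 201 and 221 at 2 SD and 9, 68 and 66 at 4 SD, and 26 were shared with 25 neighbours on each side. Count tests on whole reads called 2272 positions higher and 2050 lower (edgeR, TMM) and 1926 and 2033 (DESeq2). The labels give both genotypes the numbers 1 and 2, but the deviations of same-numbered libraries correlated at 0.0338, so the numbers were not shown to pair them; with a replicate block 2141 positions were higher and 2136 lower, and windows numbered 23 and 29 and contexts 33 and 27. Of the named positions, windows and contexts under alternatives, 662 kept their call, 8 gained one and 3 lost it, all 3 among contexts in the spacers only. Depth limits WT most: its median position had 41 and 20 reads, against 1650 and 1275.5 in the deletion.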
